A study of Mus musculus with 32 samples.

Results

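Described here are 10 genes of the NRF2 antioxidant programme and of the defence against ferroptosis in mouse embryonic stem cells kept with or without an agonist of the liver X receptors. They were taken by name from the expression tables (Nfe2l2, Nqo1, Hmox1, Gclc, Gclm, Txnrd1, Srxn1, Slc7a11, Gpx4 and Fth1), 10 of the 24890 genes measured. All 10 passed the filter on low counts, as did 15036 of all genes. The cells were the wild-type mouse line E14, maintained on gelatin in medium with serum, β-mercaptoethanol, leukemia inhibitory factor and inhibitors of GSK3 (CHIR99021) and MEK (PD0325901). The ESC arm received only this medium, and the NrESC arm received it with 10 µM T0901317, a compound that activates the oxysterol-sensing liver X receptors (LXR). Each arm was sequenced at passages 0, 2, 4, 6, 8, 10, 12 and 14 with 2 libraries of polyadenylated RNA per passage, which makes 32 libraries in 16 groups. All libraries come from a single line, the medium of both arms contained the reductant β-mercaptoethanol, and the labels give neither the length of treatment at passage 0 nor whether the 2 libraries of a group were separate cultures. The p-values therefore measure the spread between these libraries, which may be technical.

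NRF2, encoded by Nfe2l2, is a transcription factor that the adaptor KEAP1 and the ubiquitin ligase CUL3 mark for degradation until oxidants or electrophiles modify KEAP1. Stabilised NRF2 pairs with a small MAF protein on antioxidant response elements and raises enzymes that make glutathione, reduce thioredoxin and detoxify quinones and haem. Ferroptosis is cell death by iron-dependent peroxidation of membrane lipids: cystine imported by the SLC7A11 and SLC3A2 exchanger feeds glutathione, which GPX4 uses to reduce lipid peroxides, and ferritin keeps iron out of the reaction. NRF2 is regulated mainly at the level of its protein, so its transcript level is not a measure of its activity.

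Start-site sequences are shown for the members with the NRF2 binding motif upstream of the start, and for Slc7a11, the member with the largest difference between the arms, with Chac1 beside it. Of the 10 genes, 8 had an entry in the promoter table from RefSeq (build GRCm38.p6), which gives 250 bases before and 50 bases after each start site. Hmox1 and Gclc had none. The core of the antioxidant response element, TGACNNNGC, was searched on both strands, and its first letters are shared with the binding site of AP-1. It was found in 12.4% of all 32851 windows and in at least one window of 14.0% of genes, and among the 8 genes it occurred once each in Nfe2l2, Gclm, Txnrd1 and Srxn1. In Srxn1 the match lay after the start site and is not shown. Txnrd1 had 3 windows, of which 1 held the match. The windows of Nqo1, Slc7a11, Gpx4 and Fth1 did not hold these letters, and an element further from the start site would not be seen in them. The upstream matches follow, 5′ to 3′ on the gene's strand, with the match in capitals (in Gclm and Txnrd1 it is read on the opposite strand).
Nfe2l2, chr2:75704870-75704913, minus strand: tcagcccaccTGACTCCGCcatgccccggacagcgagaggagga
Gclm, chr3:122245398-122245456, plus strand: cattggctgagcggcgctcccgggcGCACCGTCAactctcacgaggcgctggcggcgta
Txnrd1, chr10:82859089-82859147, plus strand: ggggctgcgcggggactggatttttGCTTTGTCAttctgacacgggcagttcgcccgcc

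A second motif was searched after the values of Slc7a11 and of the glutathione-degrading enzyme Chac1 had been seen. It was the C/EBP-ATF response element TGATGNAA, the type of site through which ATF4 acts when amino acids are short. It occurred in 3.97% of all windows and in 4.51% of genes. The Slc7a11 window held it at 2 places that read in opposite directions, at positions -66 and -47 counted from the start site, and the Chac1 window held it once, at -193. No other member's window held it, nor did those of Slc3a2 and Cbs. Hmox1, Gclc and Cth, an enzyme of cysteine synthesis, had no window to search. Matches of the 2 motifs did not overlap. A match is a string of letters and not a measured binding site, and no binding was measured here.
Slc7a11, chr3:50443628-50443704, minus strand: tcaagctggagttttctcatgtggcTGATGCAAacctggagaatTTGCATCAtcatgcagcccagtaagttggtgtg
Chac1, chr2:119351024-119351081, plus strand: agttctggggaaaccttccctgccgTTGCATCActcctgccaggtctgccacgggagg

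Library totals ran from 24989651 to 50463483 estimated counts. The treated libraries at passage 8 lay outside the rest: on the first principal component, with 35.9% of the variance, their distance from 0 was at least 51.1 against at most 45.6 elsewhere. The standard deviation of the log2 fold changes over all genes was 0.844 at passage 8 and 0.481 to 0.659 at the other passages. Summed markers of embryonic stem cells had medians of 7407 depth-scaled counts (CPM) in ESC and 7535 in NrESC libraries, with overlapping ranges. Single markers moved in opposite directions: Nanog (-0.45), Sox2 (-0.32) and Zfp42 (-0.32) were lower and Dppa5a (0.45) and Pou5f1 (0.15) higher in NrESC at 8 of 8 passages, in log2. At passage 8 Nanog had -0.93, Sox2 -0.94 and Zfp42 -1.32, and the median of the 8 markers was -0.45. Fibroblast markers summed to 29.5 to 48.0 CPM in ESC and 31.4 to 61.1 in NrESC, with Lum at 0 in all libraries and 4 of 10 markers under 1 CPM throughout. Blood and macrophage markers summed to 4.39 to 12.8 and 3.98 to 9.12 CPM, with Hbb-b1 at 0 and 6 of 8 under 1 CPM throughout, and germ-layer markers to 17.3 to 24.7 and 21.9 to 31.6 CPM. The part of other cells, and of these pluripotency markers, in the differences below was not tested.

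Between the arms, 4 of the 10 genes stood out. Their difference had the same sign at all 8 passages and passed the test with libraries and with passages as the replicates. The cystine importer Slc7a11 was 2.92-fold higher in NrESC, the quinone reductase Nqo1 1.35-fold higher and the ferritin heavy chain Fth1 1.16-fold higher, while the transcript of NRF2 itself was 0.902 times its ESC level. The other 6 genes, among them both subunits of glutamate-cysteine ligase and the ferroptosis enzyme Gpx4, differed by at most 1.13-fold in the mean of the passages and changed sign between passages. In edgeR's quasi-likelihood test on all 32 libraries, 5 of the 10 were higher (39.1% of all genes tested were) and 3 lower (39.8%), at an adjusted p under 0.05. These shares are close to those of all genes, so the count says little about the members, and the sizes are given gene by gene. When the 2 libraries of a group were summed and the 8 passages served as the replicates, 3 were higher (28.3% of all genes) and 1 was lower (27.2%): Slc7a11, Nqo1, Fth1 and Nfe2l2. Passages of a single line need not be independent cultures, so these p-values measure the spread between passages. Without passage 8, 6 were higher and 2 lower with libraries as units. By sign alone, those 3 genes were higher at 8 of 8 passages, as were 20.1% of all genes, and Nfe2l2 was lower at 8 of 8, as were 18% of all genes, though at passage 14 by only -0.0076, a sign that 1 library decides. No member separated the 16 NrESC from the 16 ESC libraries without overlap, which 1.66% of genes did upwards and 1.32% downwards.

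**Figure D1:**
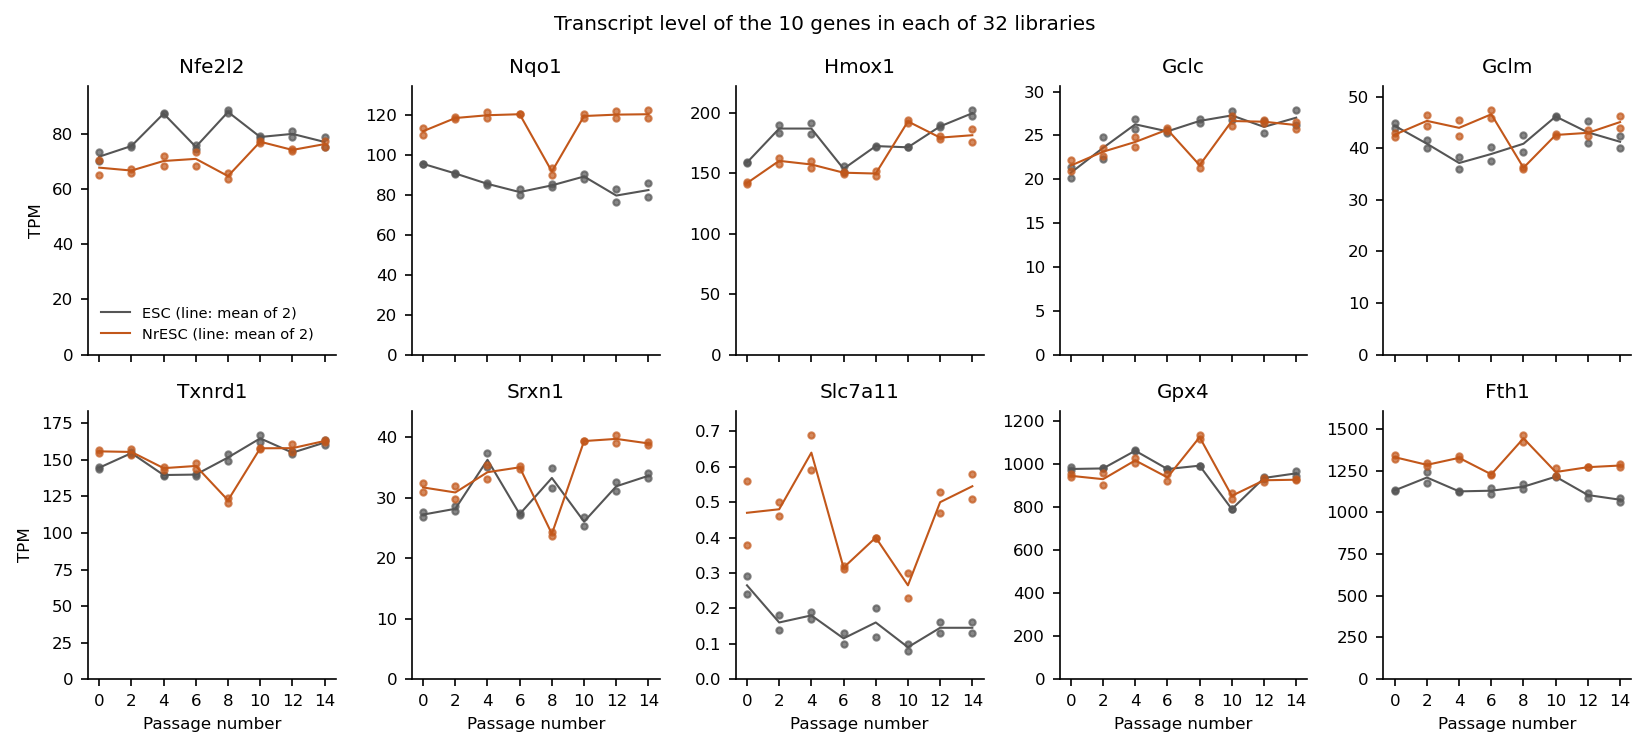
Transcript level of each gene, scaled to gene length and library size (TPM), against passage number, from a y axis that starts at 0, with points for the 32 libraries and lines through the mean of the 2 libraries of each arm and passage. Slc7a11, Nqo1 and Fth1 run above the ESC arm at every passage, and at passage 8 the NrESC level of Nqo1 (91.6 TPM) dips toward that of ESC.

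Nfe2l2, the gene of NRF2, had 70.1, 78.7 and 88.4 TPM (lowest, median and highest) in the 16 ESC libraries. The 16 NrESC libraries had 63.6, 71.2 and 77.4 TPM. The ranges overlapped, with the highest ESC values at passages 4 and 8 and the lowest NrESC value at passage 8. Over passages the means were 79.1 ± 5.75 TPM in ESC and 70.9 ± 4.55 in NrESC (SD, n = 8 passages). Nfe2l2 fell in NrESC by 0.15 ± 0.012 on the log2 scale (SE; edgeR, adjusted p = 2.01e-14), and with passage as the unit the adjusted p was 0.0145. At single passages it was called lower at 5 of 8, from -0.09 at passage 6 to -0.41 at passage 8. At passages 0, 10 and 14 the differences were -0.09, -0.04 and -0.0076 and were not called, and the sign at passage 14 turned when the first ESC or the first NrESC library of that passage was left out (0.04 and 0.02). Without passage 8 the mean difference was -0.11.

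Nqo1 encodes the NAD(P)H quinone reductase, a classic NRF2 target that also reduces coenzyme Q. Its lowest, median and highest levels were 76.5, 85.7 and 95.5 TPM in ESC and 89.8, 118 and 122 TPM in NrESC. The ranges overlapped only because of the NrESC libraries of passage 8, at 89.8 and 93.4 TPM: the other 14 NrESC libraries had 110 TPM or more, above every ESC library. The means were 86.1 ± 5.33 and 115 ± 9.94 TPM (SD, n = 8 passages). Nqo1 rose by 0.44 ± 0.013 on the log2 scale (SE; edgeR, adjusted p = 6.11e-30; passage as the unit, 6.06e-05). It was called higher at all 8 passages, least at passages 8 (0.16) and 0 (0.23) and most at passage 12 (0.60). The NrESC level was already 112 TPM at passage 0 and 118 to 120 TPM at passages 2, 4, 6, 10, 12 and 14, while the ESC level was 95.5 TPM at passage 0 and 79.6 at passage 12.

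Hmox1 encodes haem oxygenase 1, which breaks haem down to biliverdin, carbon monoxide and iron, and answers to NRF2 and to the haem-sensing repressor BACH1. It had 151, 178 and 202 TPM (lowest, median and highest) in ESC and 141, 159 and 194 TPM in NrESC. The arms overlapped widely. Hmox1 was lower in NrESC by -0.09 ± 0.011 in log2 (SE; edgeR, adjusted p = 5.38e-10), but with passage as the unit the adjusted p was 0.0727. It was lower at 7 of 8 passages, of which 5 were called. Passage 10 went the other way, with 191 and 194 TPM in NrESC against 171 and 172 in ESC (log2 fold change 0.17, called). The difference between the arms was largest at passage 2 (-0.23).

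Slc7a11, the light chain of the cystine and glutamate exchanger, was nearly silent in both arms. Its lowest, median and highest levels were 0.08, 0.15 and 0.29 TPM in ESC and 0.23, 0.465 and 0.69 TPM in NrESC, which rest on 15 to 53 and 38 to 144 counts per library. The only NrESC value under the highest ESC value was at passage 10, at 0.23 TPM, and the ESC values that reached into the NrESC range came from passage 0, at 0.24 and 0.29 TPM. At passage 0 the NrESC libraries had 0.38 and 0.56 TPM, at passage 4 they had 0.59 and 0.69, and at passage 10 they had 0.30 and 0.23. The ESC libraries of passage 10 had 0.08 and 0.10 TPM, so the low NrESC value there stood beside the lowest ESC value. The rise was 1.55 ± 0.084 on the log2 scale (SE; 95% interval 1.38 to 1.72; edgeR, adjusted p = 2.44e-20; passage as the unit, 6.1e-06). It was called at all 8 passages and ranged from 0.86 at passage 0 to 1.90 at passages 4 and 14. At passage 0 the call was lost without the second NrESC library, with a value of 0.54. On the log2(TPM + 1) scale, which compresses low levels, the mean difference was 0.32.

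Gclc and Gclm encode the catalytic and the modifier subunit of glutamate-cysteine ligase, which makes the first bond of glutathione. Gclc had 20.1, 25.9 and 27.9 TPM (lowest, median and highest) in ESC and 20.9, 25.2 and 27.2 TPM in NrESC. These ranges nearly coincided. Its mean difference was -0.04 ± 0.016 in log2 (SE; 95% interval -0.07 to -0.0032; edgeR, adjusted p = 0.0417), only passage 8 was called (-0.25), and without passage 8 the mean difference was -0.003009. Its call in the mean was lost in 20 of the 32 fits that left out 1 library. Gclm had 36.1, 41.3 and 46.2 TPM in ESC and 36.0, 43.3 and 47.3 TPM in NrESC. Its mean difference was 0.07 ± 0.017 (SE; edgeR, adjusted p = 0.000282; passage as the unit, 0.289). It was called higher at passages 2, 4, 6 and 14 (0.14, 0.33, 0.25 and 0.14) and lower at passages 8 and 10 (-0.12 at both). At the passages where Gclm was called higher, Gclc was not called.

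Txnrd1, the cytosolic thioredoxin reductase, had 139, 154 and 167 TPM (lowest, median and highest) in ESC and 121, 155 and 163 TPM in NrESC. Its mean difference was 0.0041 ± 0.0088 in log2 and was not called (SE; 95% interval -0.01 to 0.02; edgeR, adjusted p = 0.678). Single passages differed in both directions: 0.10 at passage 0 and 0.14 at passage 4 against -0.26 at passage 8 and -0.07 at passage 10, all 4 called. Srxn1 encodes sulfiredoxin, which repairs over-oxidised peroxiredoxins. It had 25.3, 29.8 and 37.4 TPM in ESC and 23.7, 35.0 and 40.4 TPM in NrESC. Its mean difference was 0.18 ± 0.017 (SE; edgeR, adjusted p = 8.7e-13), but with passage as the unit the adjusted p was 0.0935. It had the widest swing of the 10 genes after Slc7a11, from -0.42 at passage 8 to 0.59 at passage 10. Much of the swing was in NrESC, which had 24.4 and 23.7 TPM at passage 8 and 39.3 and 39.4 at passage 10, and ESC moved the other way, from 34.9 and 31.6 TPM to 26.8 and 25.3.

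Gpx4, the selenium enzyme that reduces phospholipid hydroperoxides, was second to Fth1 in level among the 10 genes. It had 789, 977 and 1065 TPM (lowest, median and highest) in ESC and 839, 936 and 1135 TPM in NrESC. Its mean difference was 0.02 ± 0.0091 in log2 (SE; 95% interval 0.00089 to 0.04; edgeR, adjusted p = 0.0511), which did not pass the threshold, and 14 of the 32 fits that left out 1 library did pass it. It was higher at passages 8 (0.24) and 10 (0.11) and lower at passage 2 (-0.08). At passage 8 the NrESC libraries had 1115 and 1135 TPM, the highest of all 32, and at passage 10 the ESC libraries had 791 and 789 TPM, the lowest of all 32.

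Fth1, the heavy chain of ferritin with the ferroxidase activity, had 1063, 1132 and 1240 TPM (lowest, median and highest) in ESC and 1218, 1282 and 1463 TPM in NrESC. The arms overlapped through 1 ESC library of passage 2 and 3 NrESC libraries, both of passage 6 and 1 of passage 10. Fth1 rose by 0.21 ± 0.0087 on the log2 scale (SE; edgeR, adjusted p = 2.15e-24; passage as the unit, 0.000816). It was called at 7 of 8 passages, with 0.38 at passage 8 and 0.03 at passage 10, where it was not called. Both NrESC libraries lay above both ESC libraries at 8 of 8 passages for Fth1, Nqo1 and Slc7a11, as for 11% of all genes. Both lay below at 7 passages for Nfe2l2, and at 8 of 8 for none of the 10 and for 9.4% of all genes. Gpx4 and Fth1 have near-identical pseudogene copies, and their values depend on how reads shared with those copies were divided.

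**Figure D2:**
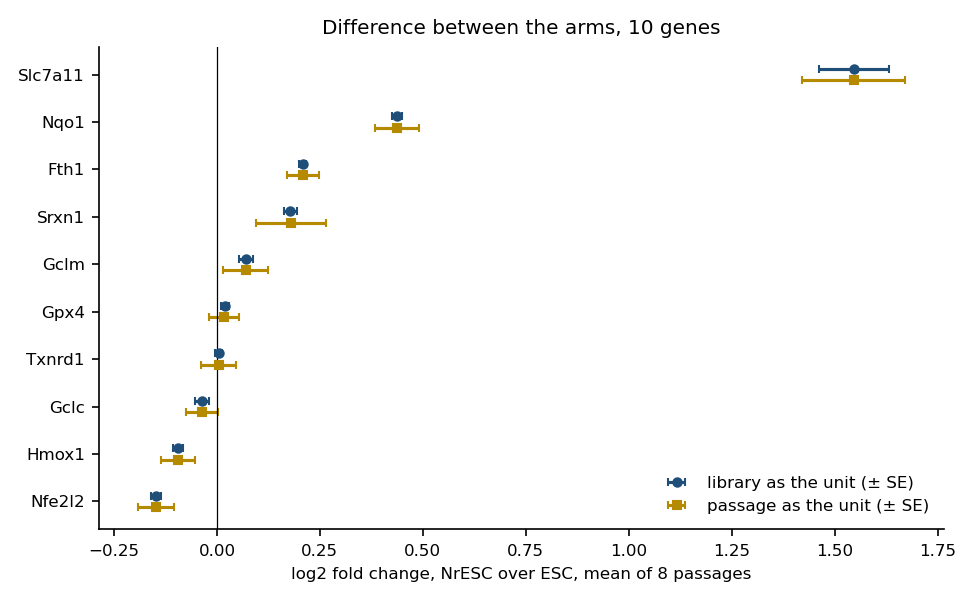
Log2 fold change of NrESC over ESC in the mean of 8 passages for the 10 genes, with bars of 1 standard error, for the 32 libraries as units and for the 8 passages as units. Slc7a11 (1.55) lies far to the right of the other 9 genes, and the error bars of all 10 genes are wider when the passage is the unit.

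Ordered by TPM in ESC, the genes ran from Fth1 (1142 TPM in the mean of passages) and Gpx4 (959) through Hmox1 (177), Txnrd1 (152), Nqo1 (86.1), Nfe2l2 (79.1), Gclm (41.6), Srxn1 (30.5) and Gclc (25.4) to Slc7a11 (0.158). Neighbours in this order overlapped in their library values for Fth1 and Gpx4, for Hmox1 and Txnrd1, for Nqo1 and Nfe2l2, for Gclm and Srxn1, and for Srxn1 and Gclc. The order of the NrESC means was the same, with Nqo1 (115 TPM) further above Nfe2l2 (70.9). Slc7a11 was therefore the gene with the largest relative and the smallest absolute rise among those called higher.

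Across single passages, 38 of the 80 tests of the 10 genes were called higher and 17 lower, beside 24.8% and 24.9% of all genes' tests. The surplus of higher calls came from Slc7a11 (8), Nqo1 (8), Fth1 (7) and Srxn1 (6). The size of the difference varied among passages for 9 of the 10 genes (69.4% of all genes), with adjusted p from 1.87e-14 (Srxn1) to 0.00284 (Gclc) in edgeR, and for Slc7a11 the adjusted p was 0.0597. Without passage 8 the number was again 9. At passage 8 all 10 genes were called, 4 higher and 6 lower, beside 35.2% and 34.6% of all genes. Slc7a11, Nqo1, Gpx4 and Fth1 were the higher ones, and Nfe2l2, Hmox1, Gclc, Gclm, Txnrd1 and Srxn1 the lower ones.

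The NrESC level at passage 8 was the lowest of the 8 NrESC passages, in scaled CPM, for 6 genes (Nfe2l2, Nqo1, Gclc, Gclm, Txnrd1 and Srxn1) and the highest for 2 (Gpx4 and Fth1), beside 30.3% and 32.5% of all genes. Many genes of all kinds were thus extreme there. The share of members at the lowest place was above that of all genes, and the share at the highest place below it. Whether this is particular to the members was not tested. Txnrd1 had 234 CPM there against 282 to 309 at the other NrESC passages. Nqo1 had 73.4 CPM against 92.9 to 99.0, and Gpx4 had 495 against 366 to 453. In the ESC arm at passage 8 these 3 genes stayed within the range of the other ESC passages, at 281, 65.5 and 419 CPM. What sets these 2 treated libraries apart was not tested.

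**Figure D3:**
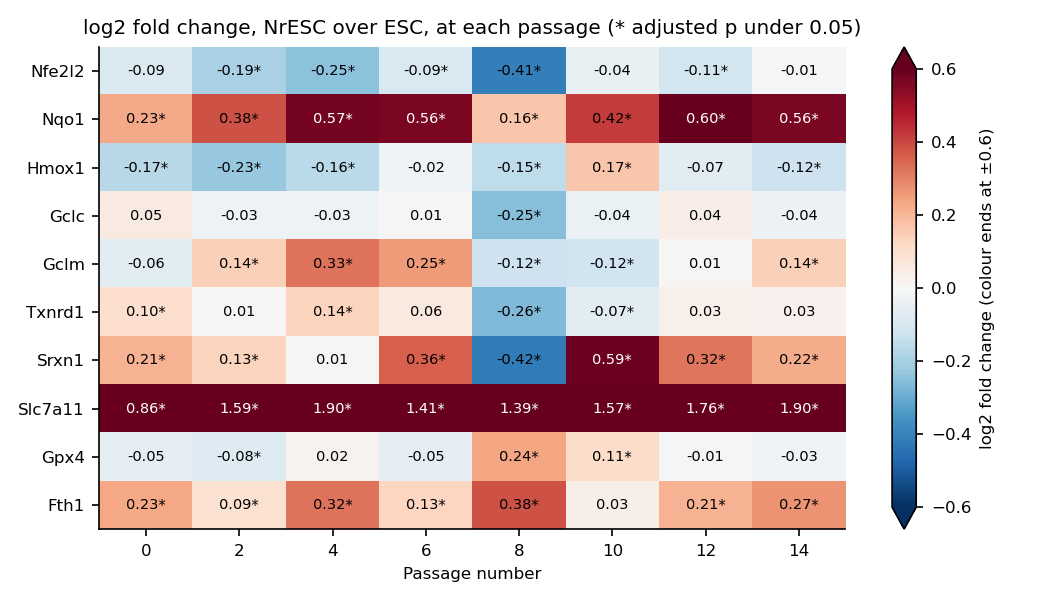
Log2 fold change of NrESC over ESC for each gene (rows) at each passage (columns), printed in each cell, with a colour scale that ends at 0.6 in either direction and a star for an adjusted p under 0.05. The column of passage 8 holds the lowest value of Nfe2l2 (-0.41), Gclc (-0.25), Txnrd1 (-0.26) and Srxn1 (-0.42) and the highest of Gpx4 (0.24) and Fth1 (0.38).

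Trends over passage number were small and depended on the unit and the model. With libraries as units, a slope was called for 7 of the 10 genes in ESC (55.4% of all genes) and for 8 in NrESC (59.9%), and the slopes of the arms differed for 6 (25.4%). With passages as units, each arm had a straight line without pairing by passage, so the model changed as well as the unit. None of the 10 was then called in any of the 3 slope tests. Over all genes the counts fell from 8333, 9005 and 3823 to 72, 361 and 2. The steepest slope with libraries as units was that of Slc7a11 in ESC, -0.06 in log2 per passage number, which was -0.03 and not called without passage 0.

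By the correlation of group means over the 16 groups, in log2 CPM, the genes most like Slc7a11 were Cabp2 (r = 0.967), Eef2k (0.963) and Pck2 (0.962). Fam162a (0.968), Bnip3 (0.955) and Ndufa4l2 (0.951) were most like Hmox1. B4galnt4 (0.952), Bub1b (0.948) and Map1a (0.933) were most like Nqo1, and Ttc29 (0.951), Nectin1 (0.942) and Klf7 (0.931) most like Fth1. Nfe2l2 was nearest to Clasp1 (0.927), Bpnt1 (0.91) and Slc35a5 (0.905). Gclc was nearest to Kif14 (0.947), Rrm2 (0.938) and Stk35 (0.926), and Gclm to Uqcrfs1 (0.888), Pfn1 (0.883) and Rbm42 (0.87). Txnrd1 was nearest to Utf1 (0.909), Txnrd3 (0.908) and Cbx2 (0.889), Srxn1 to Batf2 (0.911), Chml (0.911) and Kank4 (0.908) and Gpx4 to Dynlt1b (0.856), Gla (0.849) and Capns1 (0.849). These are the highest among the 15036 tested genes after the members and placeholder symbols (such as Gm or Rik names) were left out. The groups share passages and libraries, and the values are given as a description.

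The wider pathway was counted in 9 lists, each in the mean of 8 passages and beside a median log2 fold change over all genes of -0.0014. Of all genes, 39.1% were called higher and 39.8% lower with libraries as units, and 28.3% and 27.2% with passages as units, so a list with such shares is not set apart by its counts. Of 13 regulators and relatives of NRF2, 7 rose, 3 fell and 3 did not pass, with a median of 0.04. The list mixes partners of NRF2 with genes that restrain it, so its counts give no direction. With passages as units, 3 rose and 1 fell. Nfe2l1, the related factor that senses proteasome load, rose by 0.30 ± 0.0093 (SE), and at passage 8 its difference was 0.88. The CUL3 ligase scaffold Cul3 fell, with -0.12, and Nfe2l3 rose by 0.44. Keap1, named outside the rule because it is the partner of NRF2, had 0.04 in the mean with libraries as units (adjusted p = 0.0449; passage as the unit, 0.719) and -0.67 at passage 8.

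The glutathione and cystine list divided evenly: of 20 genes, 10 rose, 10 fell and 0 failed to pass, with a median of -0.01. Slc3a2, the heavy chain that carries SLC7A11 to the membrane, rose by 0.79 ± 0.0096 (SE), from 197 ± 20.5 to 338 ± 65.7 TPM (SD, n = 8 passages). It was thus far more abundant than Slc7a11 itself in both arms. Cystathionine β-synthase Cbs, which starts the route from homocysteine to cysteine, rose by 0.78, and Mat2a, which makes S-adenosylmethionine, fell, with -0.61. Named after their values were seen, Cth, the next enzyme of that route, had 0.54, and Chac1, which cleaves glutathione, had 1.45, both called. Glutathione synthetase Gss (-0.22) and glutathione reductase Gsr (-0.12), also named afterwards, were lower, both called.

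The list of thioredoxin and peroxiredoxin genes also holds superoxide dismutases, catalase and sestrins. Of its 16 genes, 8 rose, 5 fell and 3 did not pass, with a median of 0.04. With passages as units, 5 rose and 4 fell. Prdx6, a peroxiredoxin that can reduce phospholipid hydroperoxides, fell, with -0.36 ± 0.0091 (SE), from 180 to 137 TPM. Thioredoxin Txn1 rose by 0.21 and catalase Cat by 0.28. Of 6 genes of NADPH supply, 4 rose and 1 fell with libraries as units, and 2 rose and 1 fell with passages as units. Taldo1 (0.23) and Tkt (0.11) of the non-oxidative pentose phosphate branch rose in both, and the cytosolic isocitrate dehydrogenase Idh1 fell in both (-0.15). G6pdx (0.07) and Pgd (0.04) of the oxidative branch lost their calls with passage as the unit (adjusted p = 0.197 and 0.572), and malic enzyme Me1 (0.0086) had none.

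Of 30 detoxification genes known as NRF2 targets, 26 were tested. Among them, 14 rose, 8 fell and 4 did not pass, with a median of 0.19, and 11 rose and 4 fell with passages as units. The glutathione conjugate exporter Abcc1 rose by 0.64 ± 0.012 (SE), glutathione transferase Gstm1 by 0.66, and the haem transporter Slc48a1 by 0.70. Gstm1 belongs to a family of near-identical neighbours, so its share of the reads is uncertain. Each of these 3 was higher at 8 of 8 passages and had a larger difference at passage 8 (1.27, 1.05 and 1.12) than in the mean, unlike Nqo1, whose difference was smallest there.

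In iron handling, 14 of 17 genes were tested, of which 5 rose, 7 fell and 2 did not pass, with a median of -0.04. With passages as units, 4 rose and 4 fell. Ferritin light chain Ftl1 rose by 0.34 ± 0.015 (SE), from 2007 to 2513 TPM, and so both ferritin chains were higher. The transferrin receptor Tfrc, which brings iron in, fell, with -0.40 ± 0.010, from 305 ± 41.2 to 229 ± 39.9 TPM (SD, n = 8 passages). Ncoa4, the receptor that sends ferritin to lysosomes, fell, with -0.36. Both genes were lower at 8 of 8 passages, Tfrc with -0.61 at passage 0. Reads shared with ferritin pseudogenes bear on Ftl1 as on Fth1.

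**Figure D4:**
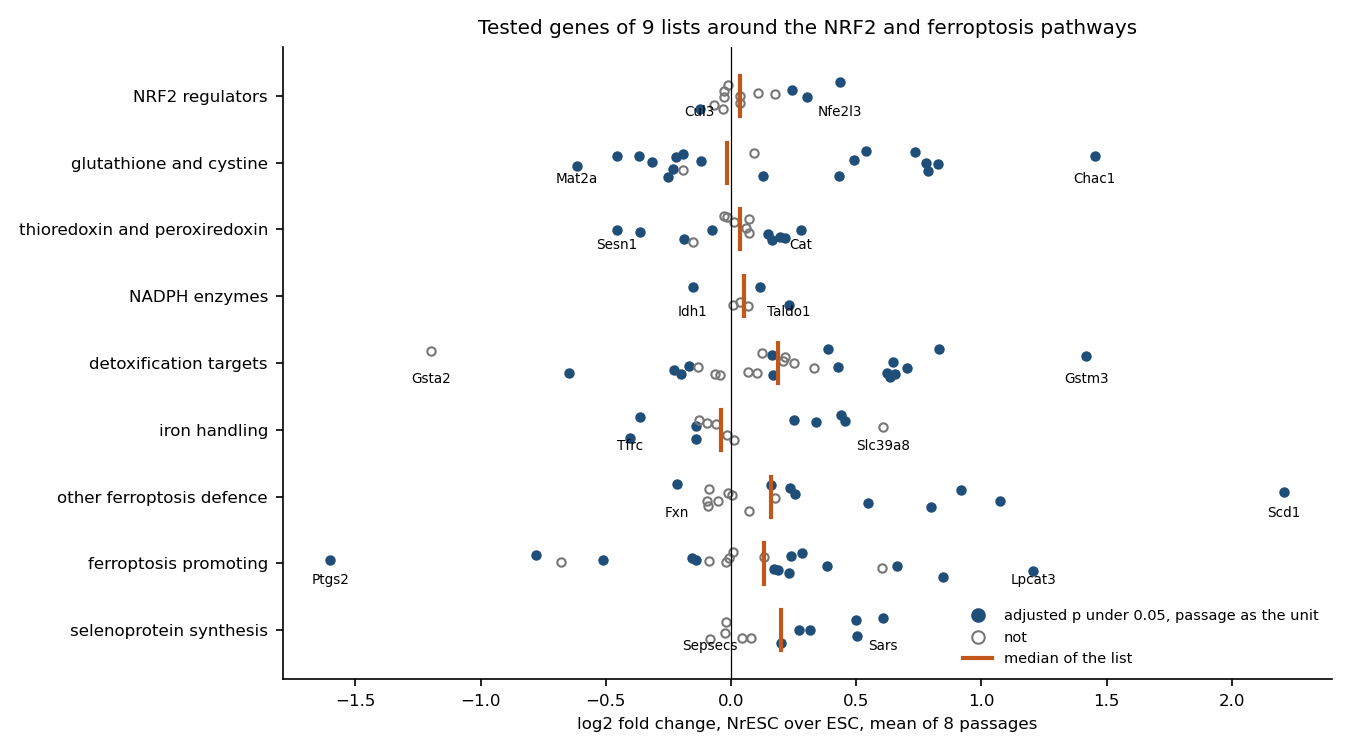
Log2 fold change of NrESC over ESC in the mean of 8 passages for every tested gene of 9 pathway lists, with filled points for an adjusted p under 0.05 with passage as the unit, vertical bars at the list medians and the highest and lowest gene of each list named. List medians lie between -0.04 (iron handling) and 0.20 (selenoprotein synthesis), while single genes reach 2.21 (Scd1) and -1.60 (Ptgs2).

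Beside Gpx4, 17 genes known to protect from ferroptosis were measured. Of these, 9 rose, 4 fell and 4 did not pass, with a median of 0.16. With passages as units, 8 rose and 1 fell. Scd1, the desaturase that makes monounsaturated fatty acids and a known LXR target, rose by 2.21 ± 0.0089 (SE), from 78.1 ± 19.4 to 354 ± 83.5 TPM (SD, n = 8 passages). Acsl3, which activates such fatty acids, rose by 0.80, and the desaturase Fads2 by 0.92. Fads2 also acts in the synthesis of long polyunsaturated fatty acids, so its rise cannot be read as protective. Gch1, the first enzyme of tetrahydrobiopterin synthesis, named after its value was seen, had 1.07 and was higher at 8 of 8 passages.

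Of 21 genes known to promote ferroptosis, 10 rose, 6 fell and 5 did not pass, with a median of 0.13. With passages as units, 9 rose and 5 fell. Lpcat3, which places polyunsaturated chains into phospholipids and is also a known LXR target, rose by 1.21 ± 0.011 (SE), from 68.3 to 157 TPM. Fads1 rose by 0.85 and Elovl5 by 0.38, both of which build long polyunsaturated fatty acids. Other lipid genes of these lists, named after their values were seen, had -0.16 (Far1, called lower), -0.09 (Mboat2, called lower with libraries as units), -0.10 (Mboat1, not called) and -0.0069 (Agps, not called). Acsl4, also named afterwards, went the other way, with 0.24 in the mean and 0.58 at passage 8. It was called higher with libraries and with passages as units. Ptgs2, often used as a transcript marker of ferroptosis and named after its value was seen, was lower (-1.60), from 0.412 to 0.124 TPM, which is close to no expression. GPX4 and TXNRD1 depend on selenoprotein synthesis. Of 11 genes listed for it, 8 rose, 1 fell and 2 did not pass, with a median of 0.20. With passages as units, 6 rose and 0 fell. The seryl-tRNA synthetase Sars rose by 0.61, the selenocysteine tRNA kinase Pstk by 0.50 and Trnau1ap by 0.32. Sars serves all serine codons, so it is not particular to selenoproteins. The list also counts Selenbp1 (0.50, called higher with both units), a selenium-binding protein and not an enzyme of that synthesis.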

How the data were processed

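Polyadenylated RNA from 32 libraries was used. Per the file headers, the authors deposited estimated counts for each gene symbol, not normalized, and TPM for the same libraries. The submitters' processing notes name STAR, Cufflinks 2.2.1, HTSeq 0.12.4, DESeq2, edgeR, RSEM and mm9, without roles; annotation and strand setting are not given in the sources used here. No exon of the 10 genes overlaps another gene in GENCODE M21.

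Expected counts (0.837% of values fractional) were rounded. Genes were filtered with filterByExpr and scaled by TMM (factors 0.979 to 1.03), and tested with edgeR 4.0.16 (quasi-likelihood, 16 group means, 16 residual degrees of freedom, Benjamini-Hochberg over 15036 genes, threshold 0.05; R 4.3.3). With passage as the unit, the 2 libraries of a group were summed. For the mean, the 8 pairs were blocked by passage (7 residual degrees of freedom). For the slopes, a straight line was fitted in each arm without that block. TPM are per length and served for levels. Alternatives used DESeq2 1.42.0 and limma 3.58.1 on log2(TPM + 1) or log2(TPM + 0.1). The 2 libraries of a group differed by more than sampling noise (chi-square per gene 1.72 to 3.44).

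The members and the lists were chosen with earlier results of these data known. All 10 members are named. From each list the 3 genes with the smallest p in the mean comparison are named, or all where 6 or fewer were tested. For each member the 3 genes with the most similar group means are named, with the members and placeholder symbols left out.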

Additional observations from a re-analysis of the deposited data

Results flagged for a closer look

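For 9 of the 10 genes, the difference between NrESC and ESC varied among the 8 passages by edgeR's test of that variation itself (69.4% of all genes tested did). The adjusted p was 1.87e-14 for Srxn1, 1.73e-11 for Txnrd1, 2.84e-11 for Fth1, 9.94e-11 for Nqo1, 2.49e-09 for Gpx4, 1.08e-08 for Hmox1, 2.83e-08 for Nfe2l2, 1.59e-07 for Gclm and 0.00284 for Gclc. The lowest of the 8 differences was at passage 8 for Nfe2l2, Nqo1, Gclc, Gclm, Txnrd1 and Srxn1, and the highest was at passage 8 for Gpx4 and Fth1. Hmox1 had its only higher value at passage 10 (0.17).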

How the results depend on the processing

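Slc7a11, Nqo1, Fth1 and Nfe2l2 kept direction and call in the mean of 8 passages under every alternative run, and Srxn1, Gclm and Hmox1 under all but passage as the unit. With passage as the unit, 3 members were higher in place of 5 and 1 lower in place of 3, and 0, 0 and 0 slopes were called in ESC, in NrESC and for their difference. The values no longer called were -0.095 for Hmox1, -0.03652 for Gclc, 0.06944 for Gclm and 0.1796 for Srxn1. Gclc also lost its call without the count filter (-0.03271) and without passage 8 (-0.003009). Txnrd1 turned to -0.004095 under relative log expression scaling, -0.000215 with at least 1 CPM in 16 libraries, -0.01347 and -0.01357 by limma on log2(TPM + 1) and log2(TPM + 0.1), -0.009948 without passage 0 and -0.004077 in DESeq2, and was called at 0.0442 without passage 8. Gpx4 was called at 0.0227 without the filter and 0.0296 without passage 0, and turned to -0.002175 and -0.002176 in the limma fits and -0.009976 without passage 8. Leaving out each library in turn gave -0.04602 to -0.02753 for Gclc and 0.01429 to 0.0251 for Gpx4, with the call of Gclc lost in 20 of 32 fits and Gpx4 called in 14 of 32. The cause of these changes was not tested. Leaving out passage 0 was chosen after seeing the data. The NrESC slope of Nqo1 turned from -0.0042 to 0.002575 and 0.002593 in the limma fits.

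The other changes of sign all began from values that were not called. Under relative log expression scaling, passage 2 gave -0.001622 for Txnrd1 and passage 4 gave -0.001594 for Srxn1, which had -0.002502 with at least 1 CPM in 16 libraries. DESeq2 gave -0.001371 for Txnrd1 at passage 2, -0.002759 for Srxn1 at passage 4 and -0.000406 for Gclm at passage 12. The limma fits, with 1 and 0.1 added, gave -0.08178 and -0.08387 for Srxn1 and -0.06298 and -0.06303 for Gpx4 at passage 4, and -0.001347 and -0.001341 for Gclm at passage 12. Their slopes were 0.005346 and 0.005412 for Nfe2l2 and 0.003783 and 0.003867 for Gclm in ESC, and 0.004178 and 0.004201 for Txnrd1 in NrESC. Those of Nfe2l2 (adjusted p = 0.0439 and 0.0443) and Txnrd1 (0.0184 and 0.0146) passed the threshold in the turned direction. Without passage 0 the slope was 0.007609 for Gclm in ESC and 0.003931 for Txnrd1 in NrESC, and the slope difference of Gclc was 0.002177. Leaving out 1 library gave -0.001079 to 0.108 at passage 0, -0.09882 to 0.03879 at passage 2 and -0.0774 to 0.02457 at passage 14 for Gclc. It gave -0.009474 to 0.02302 for Txnrd1 at passage 2, -0.06861 to 0.06033 for Srxn1 at passage 4 and -0.05217 to 0.005869 for Hmox1 at passage 6. At passage 12 it gave -0.05954 to 0.07855 for Gclm and -0.03111 to 0.01139 for Gpx4. For Nfe2l2 it gave -0.04021 to 0.04066 at passage 14 and -0.003332 to 3.752e-05 for the ESC slope.

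With a replicate block, 5 members were higher and 3 lower, as without it, and 7 in place of 8 NrESC slopes were called. The number was also 7 under relative log expression scaling, either other filter and DESeq2, and without passage 8 or passage 0. It was 6 in the limma fits. The weakest of the 8 was that of Nqo1 (edgeR, adjusted p = 0.0495). Libraries of the same number in the ESC and NrESC arms of a passage did not deviate together (correlations -0.019 to 0.0616). This cannot tell whether libraries of the same number were handled together. Depth limits Slc7a11, with 15 to 144 counts per library.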
